A study of Mus musculus with 9 samples.

Results

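Mitochondria make few of their own proteins, and nearly all the rest are carried in from the cytosol by translocases of the outer membrane (TOM, Tomm genes) and of the inner membrane (TIM, Timm genes). TOM holds receptors and a channel, TIM23 threads proteins with a cleavable presequence across or into the inner membrane, and TIM22, fed by small chaperones of the space between the membranes, inserts multi-spanning proteins. Among the proteins that TIM22 inserts are the SLC25 carriers, which exchange nucleotides, phosphate, amino acids, organic acids, cofactors and metals across the inner membrane. Dopaminergic neurons of the midbrain have long, highly branched axons and pacemaking activity, and their mitochondria have been studied widely because these cells are lost in Parkinson's disease.

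The genes described here are the rows of the table whose symbol begins with Timm or Tomm and a digit, or with Slc25a and a number, leaving out names that hold -ps, of which there were 0. They are 72 of 24487 rows, 25 with Timm or Tomm symbols and 47 with Slc25a symbols. One of the 25, Tomm6os, is an antisense transcript and makes no translocase. Of the 72, 60 had a mean of at least 1 FPKM over all libraries and were tested, 23 with Timm or Tomm symbols and 37 carriers. FPKM count sequenced fragments relative to the length of the transcript and the size of the library, so levels of different genes can be compared within a library.

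RNA sequencing compared 4 libraries of dopaminergic neurons from the midbrain with 5 libraries of whole midbrain, both from mice of strain background C57BL/6. No transgene, age, sex or number of animals is given in the labels, and the libraries may come from shared animals, in which case a p-value reflects the scatter of these libraries alone. The labels do not state how the RNA of the dopaminergic neurons was obtained. The table's title uses the term bacTRAP, a method in which a transgene tags the ribosomes of 1 cell type so that the RNA they carry can be captured. With such a method, ribosome-bound RNA of 1 cell type would be set against RNA of the whole tissue, and this cannot be told apart from cell type. Whole midbrain itself contains dopaminergic neurons.

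All 8 dopaminergic markers examined were higher in the dopaminergic libraries, with summed levels of 3710 to 4134 FPKM against 208 to 242 FPKM in whole midbrain. The markers of other cells were lower, 39 of 39 in all. Their summed levels in the dopaminergic and the whole midbrain libraries were 34.6 to 52.2 against 819 to 918 FPKM for 8 astrocyte genes, 168 to 288 against 2869 to 3338 FPKM for 8 oligodendrocyte genes and 4.59 to 9.31 against 120 to 144 FPKM for 7 microglial genes. They were 2.05 to 3.66 against 111 to 159 FPKM for 8 endothelial and mural genes and 62.7 to 75.8 against 384 to 425 FPKM for 8 genes of other neurons. No marker was at 0 in all dopaminergic libraries. Across the genes tested, Pearson's r of log2 values was 0.9897 to 0.9914 between dopaminergic libraries, 0.9471 to 0.9621 between whole midbrain libraries 1, 3, 4 and 5, and 0.9033 to 0.9057 between these and whole midbrain library 2, which stood apart. Summed over all rows, FPKM came to 506466 to 521822 in the dopaminergic libraries, 409130 in whole midbrain library 2 and 309275 to 313252 in the other whole midbrain libraries, so results are also given as TPM, in which each library has the same total.

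The Timm and Tomm genes were higher in dopaminergic neurons nearly as a whole, and the carriers were not. Of the 23 Timm and Tomm genes tested, 21 rose, 1 fell (Timm21) and 1 did not pass (Timm44), and the median on the log2 scale was 1.32. That is 91.3% higher, where 38.3% of all 13106 genes tested were called higher and 36.0% lower (limma, Benjamini-Hochberg adjusted p under 0.05). Of the 37 carriers, 14 rose and 3 fell, or 37.8% and 8.11%, so the share that rose was near that of all genes. The median log2 fold change of the carriers was 0.20, and that of all genes tested was 0.04. A rise of at least 1 on the log2 scale was seen in 16 of the 23 Timm and Tomm genes and 6 of the 37 carriers, against 15.1% of all genes. Leaving Tomm6os out of these counts, 20 of 22 Timm and Tomm genes rose, 15 of them by at least 1. Without whole midbrain library 2, 21 Timm and Tomm genes and 20 carriers rose, while 43.1% of all genes were called higher. As TPM, 16 Timm and Tomm genes rose and 2 fell, and 7 carriers rose and 18 fell, while 15.9% of all genes were called higher and 59.1% lower. Of the 20 carriers that did not pass in FPKM, 15 were among those lower as TPM. Fold changes on the log2 scale were taken after 1 was added to each FPKM, which makes the change of weakly expressed genes look smaller.

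The summed levels showed the same contrast without a fold change for each gene. The Timm and Tomm genes together made up 0.525, 0.531, 0.535 and 0.548% of all FPKM in dopaminergic libraries 1 to 4, against 0.253, 0.286, 0.247, 0.244 and 0.254% in whole midbrain libraries 1 to 5. The carriers made up 0.425, 0.421, 0.438 and 0.421% in the dopaminergic libraries, against 0.439, 0.520, 0.436, 0.434 and 0.449% in whole midbrain. The share of the Timm and Tomm genes was therefore higher in every dopaminergic library than in any whole midbrain library. The carrier share in dopaminergic libraries 1, 2 and 4 lay below every whole midbrain value, and that of library 3 lay above 2 of them. Most of the carrier sum lay in the ADP/ATP, ATP-Mg and phosphate carriers, at 0.291 to 0.307% against 0.303 to 0.398%. The di- and tricarboxylate carriers had a higher share in every dopaminergic library (0.0281 to 0.0307% against 0.0205 to 0.0219%). So did the cofactor and nucleotide carriers and, narrowly, the amino acid and carnitine carriers. The aspartate and glutamate carriers, mitoferrins, uncoupling-protein relatives and other SLC25 genes had a lower one in each. In whole midbrain the carriers had the larger sum, and in dopaminergic neurons the Timm and Tomm genes did. That order in dopaminergic neurons rested on Timm8b: in a sum without it, formed after the values were seen, the Timm and Tomm genes came to 1681 to 1761 FPKM, below the 2131 to 2279.7 FPKM of the carriers. Their share of all FPKM without Timm8b was 0.328 to 0.337% in dopaminergic neurons, still above the 0.187 to 0.204% of whole midbrain.

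**Figure D1:**
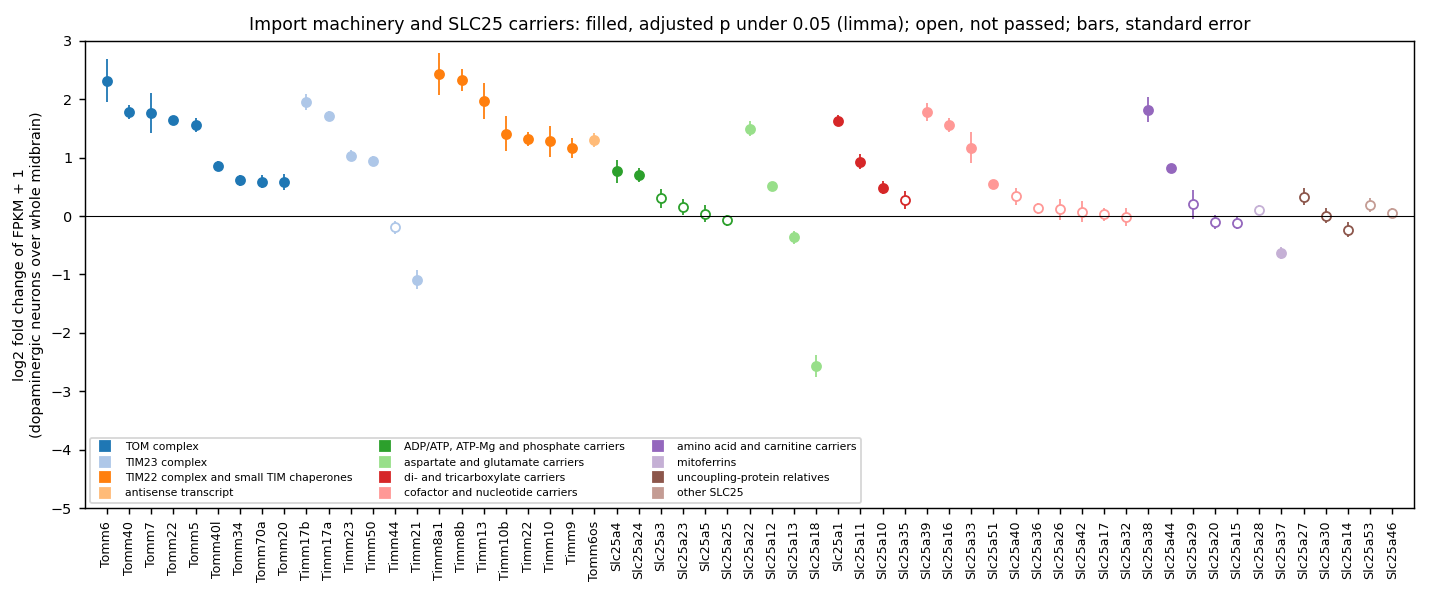
Log2 fold change of FPKM + 1, dopaminergic neurons over whole midbrain, for 59 of the 60 genes tested, grouped and coloured by role. Filled points passed at an adjusted p under 0.05 (limma), open points did not, and bars are standard errors. All genes of the TOM and TIM22 groups lie above 0 in FPKM (as TPM Tomm20, Tomm34 and Tomm70a were below it), whereas the carriers spread from -2.57 (Slc25a18) to 1.82 (Slc25a38).

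Within the TOM group, Tomm34 included, 9 of 9 genes tested rose, where 38.3% of all genes were called higher. The groups did not overlap for any of them (32.6% of all genes did not overlap and were higher). As TPM 5 of the 9 rose and 0 fell, beside 15.9% and 59.1% of all genes. The largest rise was that of Tomm6, a small subunit that stabilizes the complex, at 117, 109, 113 and 111 FPKM in dopaminergic libraries 1 to 4, against 18.6, 64.1, 16.3, 15.1 and 16.2 FPKM in whole midbrain libraries 1 to 5. Every dopaminergic library was above every whole midbrain library, but whole midbrain library 2 stood between the groups. Its log2 fold change was 2.31 with a standard error (SE) of 0.37 (limma adjusted p = 0.00022), and 2.69 without whole midbrain library 2. Tomm6 shares 859 exonic bases with Gm21981 on the same strand and 219 with Tomm6os on the opposite strand, so reads from them may be mixed. Tomm40, which forms the channel of the outer membrane, was at 50.7, 48.3, 61.6 and 55.0 FPKM in dopaminergic neurons, against 14.9, 19.7, 13.7, 14.0 and 13.2 FPKM in whole midbrain. The groups were wide apart, with a log2 fold change of 1.78 (SE 0.12, limma adjusted p = 4.9e-07).

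The receptors of TOM rose unequally. Tomm22, the central receptor, was at 197, 202, 199 and 213 FPKM in dopaminergic neurons, against 58.1, 66.9, 64.5, 65.2 and 67.6 FPKM in whole midbrain. Library 2 lay inside its group here, and the log2 fold change was 1.64 (SE 0.07, limma adjusted p = 3.0e-08). Tomm20, the receptor for presequences, was at 79.9, 82.7, 75.2 and 82.6 FPKM, against 56.1, 37.4, 60.6, 57.4 and 57.6 FPKM in whole midbrain, where library 2 was the lowest. Its log2 fold change was 0.58 (SE 0.13, limma adjusted p = 0.0026). As TPM it was -0.11 and under quantile normalization -0.02, and neither passed (adjusted p = 0.64 and 0.93). Tomm70a, the receptor that takes up SLC25 carriers and other proteins with internal signals, averaged 47.5 ± 1.61 FPKM in dopaminergic neurons (SD, n = 4) and 31.6 ± 4.67 in whole midbrain (SD, n = 5), and it too was at -0.10 as TPM. The ratio of Tomm20 to Tomm22 within a library was 0.377 to 0.409 in dopaminergic neurons, against 0.852 to 0.966 in whole midbrain libraries 1, 3, 4 and 5 and 0.559 in library 2. A ratio of FPKM within a library does not change when all its values are scaled by 1 factor, but the tested ratio of FPKM + 1 does through the added 1. A shift that goes with transcript length would not cancel in it, and the exons of Tomm20 span 4906 bases and those of Tomm22 1651. No pair ratio was computed with length correction. The mean log2 ratio of FPKM + 1 differed by -1.06 (exact permutation test, two-sided, p = 0.016, the smallest that 4 against 5 libraries can give, and 0.024 adjusted over 12 pairs).

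Of the other TOM genes, the small subunits Tomm5 and Tomm7 rose to 249 ± 18.5 and 76.7 ± 2.004 FPKM in dopaminergic neurons, against 84.3 ± 14.2 and 25.5 ± 19.0 FPKM in whole midbrain. For Tomm7, whole midbrain library 2 was at 59.4 FPKM and the rest of its group at 15.2 to 18.4 FPKM. Tomm40l, a close relative of the channel gene, was at 21.9, 23.2, 22.8 and 22.2 FPKM in dopaminergic neurons, against 11.7, 13.7, 11.5, 10.4 and 12.5 FPKM in whole midbrain (log2 fold change 0.86, SE 0.08, limma adjusted p = 4.8e-06), and as TPM it did not pass (adjusted p = 0.055). Its exons share 3304 bases with Nr1i3 on the opposite strand, so reads of the pair may be mixed. The ratio of Tomm40 to Tomm40l was 2.08 to 2.70 in dopaminergic neurons and 1.05 to 1.44 in whole midbrain, a difference in mean log2 ratio of 0.91 (exact permutation test, p = 0.016, 0.024 adjusted over 12 pairs). Tomm34, a cytosolic co-chaperone of import, averaged 39.2 ± 2.55 against 25.4 ± 3.11 FPKM and stood at -0.07 as TPM. Tomm20l was at 0.264 FPKM in dopaminergic library 1, listed at 0 in the other 3, and at most 0.334 FPKM in whole midbrain. The antisense transcript Tomm6os was at 4.16, 4.97, 3.93 and 3.74 FPKM in dopaminergic neurons, against 1.25, 1.504, 0.794, 0.907 and 1.12 FPKM in whole midbrain. Of its 2944 exonic bases, 1221 are shared with Prickle4, 958 with Gm21981 and 219 with Tomm6, all on the opposite strand. Prickle4 was higher too (log2 fold change 0.76, limma adjusted p = 0.00037), and without a stated strand setting the reads of these genes cannot be told apart.

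In TIM23, 4 of 6 genes rose, 1 fell and 1 did not pass, beside 38.3% higher and 36.0% lower among all genes. As TPM 3 rose and 2 fell, beside 15.9% and 59.1% of all genes. Timm17a, which lines the channel with Timm23, was at 345, 322, 322 and 327 FPKM in dopaminergic neurons, against 109, 104, 93.0, 93.1 and 98.2 FPKM in whole midbrain. The groups were far apart, by 1.72 on the log2 scale (SE 0.08, limma adjusted p = 3.9e-08). Its paralog Timm17b was at 28.5, 31.7, 33.2 and 31.3 FPKM, against 7.83, 4.91, 8.72, 6.91 and 8.88 FPKM in whole midbrain, where library 2 was again the lowest. Its log2 fold change was 1.95 (SE 0.14, limma adjusted p = 8.2e-07). The ratio of Timm17a to Timm17b was 9.69 to 12.1 in dopaminergic neurons and 10.7 to 21.2 in whole midbrain, and its difference did not pass (mean log2 ratio 3.36 ± 0.14 against 3.59 ± 0.35, difference -0.24, exact permutation p = 0.21, 0.25 adjusted over 12 pairs). Timm23, the channel subunit that gives the complex its name, averaged 107 ± 10.2 FPKM in dopaminergic neurons and 52.0 ± 4.47 FPKM in whole midbrain. It has 5 near-identical copies in the annotation (at least 97 percent identity over at least 300 bases), so the split of its reads is uncertain. The same holds for 8 other members, among them Tomm20 and Slc25a37 with 2 such copies each and Tomm22, Slc25a36 and Slc25a40 with 1 each. Timm50, the receptor on the inner side, averaged 17.3 ± 1.39 against 8.50 ± 0.578 FPKM, and its call ended as TPM (adjusted p = 0.050, log2 fold change 0.31).

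The exceptions were Timm44 and Timm21. Timm44, which tethers the import motor to the channel, was at 11.1, 11.6, 14.1 and 14.2 FPKM in dopaminergic neurons, against 12.1, 14.1, 15.9, 16.4 and 15.1 FPKM in whole midbrain. The groups overlapped and it did not pass (log2 fold change -0.19, limma adjusted p = 0.13), although it was called lower as TPM (-0.88), under upper-quartile scaling (-0.42) and quantile normalization (-0.30), and without whole midbrain library 1 (-0.26, adjusted p = 0.045). Timm21, which links TIM23 to the outer membrane translocase and to respiratory chain complexes, was at 2.09, 3.58, 2.88 and 1.60 FPKM, against 6.75, 7.64, 5.54, 6.30 and 5.77 FPKM in whole midbrain. Every dopaminergic library was below every whole midbrain library, which held for 31.8% of all genes. It fell by 1.09 on the log2 scale (SE 0.16, limma adjusted p = 0.00013), and by 1.03 without whole midbrain library 2. It was the only Timm or Tomm gene tested that was called lower in FPKM.

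**Figure D2:**
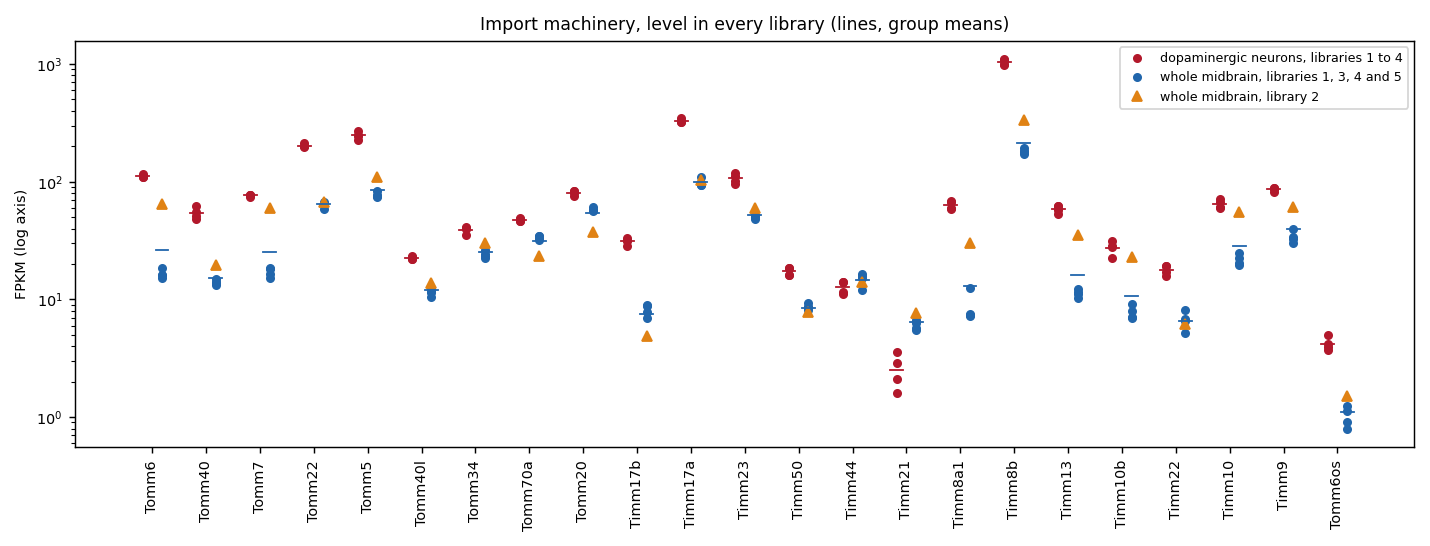
Level in every library (FPKM, log axis) of the 23 Timm and Tomm genes tested, with dopaminergic neurons left of whole midbrain for each gene and lines at the group means. Whole midbrain library 2 (triangles) lies above the rest of its group for 15 of the 23 and below it for 4. Timm21 is the gene whose dopaminergic points all lie below those of whole midbrain.

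TIM22 and the small chaperones rose as a group, 7 of 7 genes tested, where 38.3% of all genes were called higher. Each of the 7 rose by more than 1 on the log2 scale, where 15.1% of all genes rose by at least 1. As TPM 7 of 7 rose too, beside 15.9% higher and 59.1% lower among all genes. The summed level of the group was 1296, 1322, 1397 and 1428 FPKM in dopaminergic libraries 1 to 4. In whole midbrain libraries 1 to 5 it was 275, 545, 264, 271 and 279.9 FPKM. Most of it was Timm8b. This gene, which encodes a small chaperone of the space between the membranes, was at 979.6, 1008, 1078 and 1098 FPKM in dopaminergic neurons, against 183, 335, 173, 178 and 194 FPKM in whole midbrain. It ranked 1 of the 72 genes in dopaminergic neurons, ahead of the ADP/ATP carrier Slc25a4, and 3 in whole midbrain. The dopaminergic libraries were all far above whole midbrain, library 2 included, and the log2 fold change was 2.33 (SE 0.19, limma adjusted p = 1.5e-06). Its annotated exons span 518 bases, the shortest of the members, of which 81 are shared with Nkapd1 on the opposite strand. The table places it at chr9:50603901-50605320 (mm10, counted from 1).

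Timm8a1, the mouse ortholog of the gene mutated in human deafness-dystonia syndrome, had the largest log2 fold change of the 60 genes. It was at 67.6, 68.4, 58.2 and 60.1 FPKM in dopaminergic neurons, against 12.6, 30.2, 7.17, 7.41 and 7.56 FPKM in whole midbrain. The groups did not overlap, with libraries 1 and 2 of whole midbrain above the other 3, and the log2 fold change was 2.42 (SE 0.36, limma adjusted p = 0.00013) or 2.77 without whole midbrain library 2. Its locus is chrX:134537258-134541629, and 1 other annotated transcript, Gm9797, is identical to it over 612 bases. The ratio of Timm8a1 to Timm8b was 0.0540 to 0.0691 in dopaminergic neurons and 0.0391 to 0.0901 in whole midbrain, and its difference did not pass (mean log2 ratio -4.01 ± 0.19 against -4.10 ± 0.48, difference 0.09, exact permutation p = 0.73). Another family member, Timm8a2, was listed at 0 in 3 dopaminergic libraries and at 0.161 FPKM in the fourth, against at most 0.295 FPKM in whole midbrain.

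The promoters of genes with the largest changes are shown because most Timm and Tomm genes rose. They are the 250 bases before the annotated start in RefSeq (GRCm38.p6, the same assembly as mm10) for the pair with the largest rises, for Tomm22, which had the lowest adjusted p of the members, and for Slc25a18, the gene with the largest fall. Each reads 5′ to 3′ toward the gene, and capitals mark CCGGAAG, a core of ETS factor sites, and TCAAGGTCA, a core of estrogen-related receptor (ERR) sites, on either strand.
Timm8b, chr9:50603651-50603900, plus strand: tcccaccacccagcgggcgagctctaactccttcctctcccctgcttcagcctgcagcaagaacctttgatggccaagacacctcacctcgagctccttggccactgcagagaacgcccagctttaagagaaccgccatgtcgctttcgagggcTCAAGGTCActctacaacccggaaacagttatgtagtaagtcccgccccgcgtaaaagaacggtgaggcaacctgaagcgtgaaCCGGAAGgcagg
Timm8a1, chrX:134541671-134541920, minus strand: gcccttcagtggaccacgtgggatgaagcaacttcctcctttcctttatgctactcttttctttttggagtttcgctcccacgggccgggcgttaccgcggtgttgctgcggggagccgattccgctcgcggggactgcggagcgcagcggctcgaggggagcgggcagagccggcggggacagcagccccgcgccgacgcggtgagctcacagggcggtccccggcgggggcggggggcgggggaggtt
Tomm22, chr15:79670618-79670867, plus strand: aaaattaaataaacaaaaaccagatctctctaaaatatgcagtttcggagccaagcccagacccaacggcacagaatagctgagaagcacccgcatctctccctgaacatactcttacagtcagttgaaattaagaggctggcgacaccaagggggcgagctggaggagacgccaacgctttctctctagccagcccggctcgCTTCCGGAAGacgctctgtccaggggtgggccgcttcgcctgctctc
Slc25a18, chr6:120773518-120773767, plus strand: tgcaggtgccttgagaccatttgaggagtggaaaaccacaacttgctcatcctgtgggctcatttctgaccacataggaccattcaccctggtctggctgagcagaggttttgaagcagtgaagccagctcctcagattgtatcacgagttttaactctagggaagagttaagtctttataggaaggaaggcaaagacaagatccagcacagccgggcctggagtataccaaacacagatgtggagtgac
In the Timm8b promoter the ERR letters ended 88 bases and the ETS letters 6 bases before the start, and the core letters of nuclear respiratory factor 1 (NRF1) sites lay after it. The Tomm22 promoter held the ETS letters on both strands in 2 overlapping matches. The promoters of Timm8a1 and Slc25a18 held the letters of none of these 3 motifs in the stretch shown. Promoter windows of 300 bases (250 before and 50 after the start) were found for 58 of the 72 genes. Of these, 15 held CCGGAAG (25.9%, against 9.93% of 27025 genes of all kinds), 4 held the NRF1 core (6.90% against 5.19%) and 1 held TCAAGGTCA (1.72% against 0.466%). GGGCGG, the GC box, was in 40 (69.0% against 38.2%), CCAAT in 26 (44.8% against 41.1%), TGACGTCA, the cyclic AMP response element, in 2 (3.45% against 2.03%) and AAGATGGC, a core of YY1 sites, in 2 (3.45% against 3.19%). The NRF1 core and GGGCGG can share bases with other GC-rich letters, and letters in a window are no evidence that a factor binds there. Of the members that rose, 30 had a window. GGGCGG was in 20 of them, CCAAT in 11, CCGGAAG in 9 and the NRF1 core in 2. TCAAGGTCA and AAGATGGC were in 1 each and TGACGTCA in 0. In all these counts a gene with several annotated starts had a window at each. It was counted once if any of them held the letters.

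The remaining small chaperones and TIM22 itself rose by 1.17 to 1.97 on the log2 scale. Timm13, the partner of the Timm8 proteins in 1 hexamer, averaged 58.8 ± 4.04 FPKM in dopaminergic neurons and 16.2 ± 10.9 FPKM in whole midbrain. Timm9 and Timm10, which form the other hexamer, averaged 86.7 ± 3.56 and 65.0 ± 5.63 FPKM, against 39.4 ± 12.5 and 28.4 ± 15.03 FPKM in whole midbrain. Timm10b, the member bound to TIM22, was at 22.5 to 31.2 FPKM against 6.91 to 22.8 FPKM, so that whole midbrain library 2, the highest of its group, reached the lowest dopaminergic value. Timm22, the channel of the carrier pathway, averaged 17.9 ± 1.72 against 6.59 ± 1.09 FPKM (log2 fold change 1.32, SE 0.12, limma adjusted p = 2.8e-06). Library 2 lay inside its group for Timm22.

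Genes of import and related functions outside these names were counted as a separate list. Most of its 26 genes serve presequence cleavage, oxidative folding, motor function or outer membrane assembly. Some have other roles, among them Timmdc1, Hspd1, Hspe1 and Afg3l2. Of the 26, 20 rose and 3 fell (median 0.75 on the log2 scale), beside 38.3% higher and 36.0% lower among all genes. As TPM 8 rose and 7 fell, beside 15.9% and 59.1% of all genes. Romo1, a small protein of the inner membrane tied to TIM23, averaged 627.5 ± 44.4 FPKM in dopaminergic neurons and 143 ± 116 FPKM in whole midbrain, where library 2 was at 349.7 FPKM and the others at 85.4 to 98.9 FPKM. Chchd4, which folds the small TIM proteins by oxidation, averaged 114 ± 4.67 against 25.5 ± 6.34 FPKM, a log2 fold change of 2.15 (SE 0.15). The largest falls were those of Hspa9, the heat shock protein that powers the import motor, at 41.2 ± 4.50 against 65.6 ± 20.5 FPKM, and of Aifm1, which works with Chchd4, at 7.66 ± 1.43 against 11.2 ± 1.82 FPKM. For Hspa9 whole midbrain library 2 was again far above the rest of its group, at 102 against 54.1 to 57.8 FPKM.

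Among the carriers, Slc25a4 had the highest mean FPKM in both groups, followed by Slc25a3 and Slc25a5. Slc25a4, the ADP/ATP exchanger typical of heart and muscle and also present in brain, was at 911, 914, 1012 and 954 FPKM in dopaminergic neurons, against 500.0, 922, 483, 483 and 498 FPKM in whole midbrain. Whole midbrain library 2 lay inside the dopaminergic range and the other 4 were well below it. The log2 fold change was 0.77 (SE 0.20, limma adjusted p = 0.0049), 0.95 without library 2, 0.06 as TPM (adjusted p = 0.63) and -0.38 under quantile normalization (adjusted p = 0.00087). Slc25a5, the more widely expressed ADP/ATP exchanger, was at 217, 203, 217 and 202 FPKM, against 185, 292, 177, 191 and 193 FPKM in whole midbrain. It did not pass (0.04, adjusted p = 0.81), passed as higher without library 2 (0.17, adjusted p = 0.0052) and with weights per library (0.15, adjusted p = 0.029), and was called lower as TPM (-0.66) and under quantile normalization (-0.85). It has 2 near-identical processed pseudogenes.

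The balance between these 2 carriers also differed between the groups. The ratio of Slc25a4 to Slc25a5 was 4.19, 4.49, 4.67 and 4.71 in dopaminergic neurons, against 2.70, 3.15, 2.73, 2.53 and 2.58 in whole midbrain. The groups did not overlap, and the mean log2 ratio was higher by 0.72 (2.17 ± 0.08 against 1.44 ± 0.13, exact permutation p = 0.016, 0.024 adjusted over 12 pairs). Slc25a3, which brings in phosphate for ATP synthesis, averaged 279.9 ± 5.89 FPKM in dopaminergic neurons and 233 ± 67.6 FPKM in whole midbrain, where library 2 was at 354 FPKM, above every dopaminergic library. It did not pass (0.30, limma adjusted p = 0.13) but did without library 2 (0.46, adjusted p = 1.6e-06), with weights per library (0.45) and with median centring (0.37, adjusted p = 0.048). As TPM (-0.40) and under quantile normalization (-0.60) it was called lower. Of the calcium-regulated ATP-Mg/phosphate carriers, Slc25a24 was low and rose, at 3.14, 2.64, 2.39 and 2.43 FPKM in dopaminergic neurons, against 1.03, 1.78, 0.972, 1.26 and 1.25 FPKM in whole midbrain. Its log2 fold change was 0.70 (SE 0.12, limma adjusted p = 0.00042), and as TPM it did not pass (0.32, limma adjusted p = 0.060). Slc25a23 was at 60.7, 62.5, 66.6 and 74.4 FPKM, against 65.4, 42.3, 66.7, 62.1 and 61.9 FPKM in whole midbrain. Slc25a25 was at 12.98, 12.6, 14.3 and 12.7 FPKM, against 14.6, 16.8, 12.9, 12.1 and 13.4 FPKM in whole midbrain. The groups overlapped for both and neither passed, though both were called lower as TPM (-0.54 and -0.76), nor did their ratio (4.65 to 5.84 in dopaminergic neurons, 2.52 to 5.16 in whole midbrain, difference in mean log2 ratio 0.23, exact permutation p = 0.35, 0.38 adjusted over 12 pairs). Slc25a31, the testis form of the ADP/ATP carrier, and Slc25a41 were at most 0.168 FPKM in every library.

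**Figure D3:**
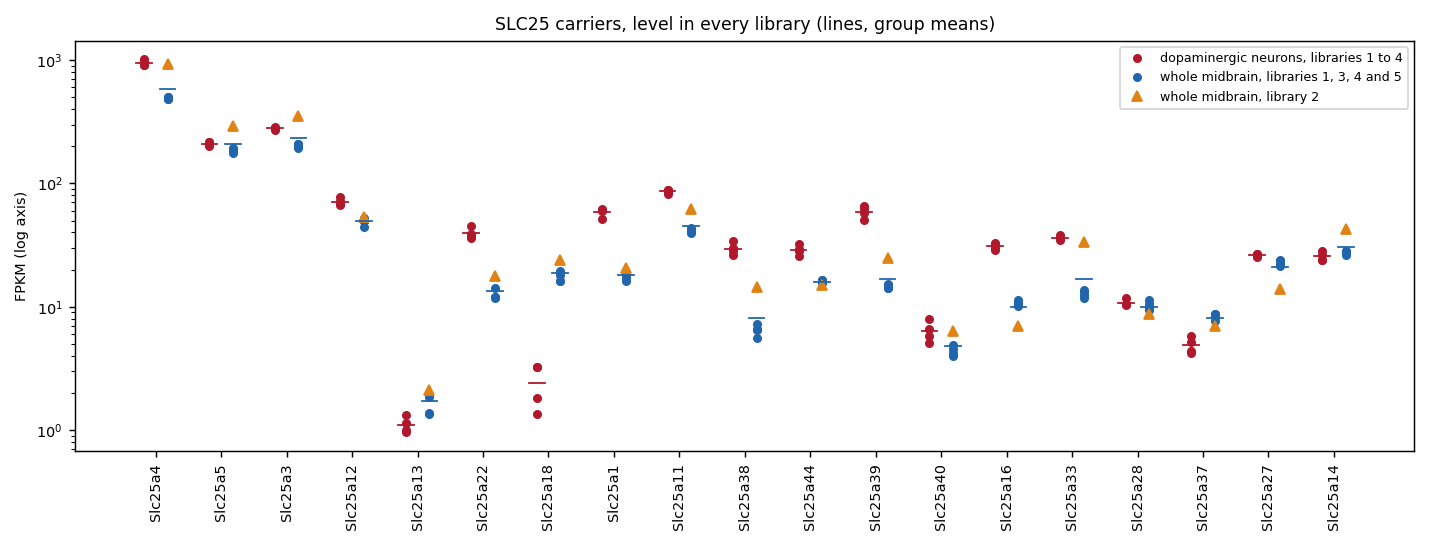
Level in every library (FPKM, log axis) of 19 carriers named in the text, with dopaminergic neurons left of whole midbrain for each gene and lines at the group means. Slc25a13, Slc25a18 and Slc25a37 are lower in every dopaminergic library than in any whole midbrain library. For some carriers, among them Slc25a3, Slc25a4, Slc25a5 and Slc25a14, whole midbrain library 2 (triangles) reaches or passes the dopaminergic points.

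The aspartate and glutamate carriers split into 2 that rose and 2 that fell, beside 38.3% higher and 36.0% lower among all genes. Slc25a12 (aralar), the aspartate/glutamate carrier of the malate-aspartate shuttle in neurons, was at 76.9, 72.6, 68.5 and 66.5 FPKM in dopaminergic neurons, against 52.1, 53.0, 49.9, 44.3 and 49.1 FPKM in whole midbrain. The groups were apart, at 0.51 on the log2 scale (SE 0.08, limma adjusted p = 0.00018), while as TPM the value was -0.18 and did not pass. Slc25a13 (citrin), the form best known from liver, was at 0.966, 1.32, 1.14 and 1.004 FPKM, against 1.39, 2.11, 1.93, 1.86 and 1.34 FPKM in whole midbrain. It fell by 0.37 on the log2 scale (SE 0.12, limma adjusted p = 0.016), a low level at which quantile normalization gave 0.24. The ratio of Slc25a12 to Slc25a13 was 55.0 to 79.6 in dopaminergic neurons and 23.8 to 37.5 in whole midbrain, higher by 0.87 on the log2 scale of FPKM + 1 (exact permutation p = 0.016, 0.024 adjusted over 12 pairs).

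The glutamate carriers gave the widest contrast. Slc25a22, the glutamate carrier whose human gene is linked to early epileptic encephalopathy, was at 38.9, 36.1, 45.4 and 37.6 FPKM in dopaminergic neurons, against 11.9, 17.6, 11.7, 11.98 and 14.2 FPKM in whole midbrain. It rose by 1.49 on the log2 scale (SE 0.13, limma adjusted p = 2.1e-06). Slc25a18, the other glutamate carrier, known in brain mainly from astrocytes, was at 1.35, 3.22, 1.82 and 3.24 FPKM in dopaminergic neurons, against 16.1, 23.8, 19.5, 16.2 and 18.1 FPKM in whole midbrain. Its locus is chr6:120773768-120793982. It fell by 2.57 on the log2 scale (SE 0.19, limma adjusted p = 9.0e-07), the largest fall of the members. The ratio of Slc25a22 to Slc25a18 was 28.8, 11.2, 24.9 and 11.6 in dopaminergic neurons, against 0.741, 0.740, 0.598, 0.738 and 0.784 in whole midbrain. Which of the carriers was the more abundant was thus opposite in the groups, with a difference in mean log2 ratio of 4.06 (exact permutation p = 0.016, 0.024 adjusted over 12 pairs). All 8 astrocyte markers were lower as well, with log2 fold changes of -4.72 (Apoe) to -2.23 (Aldh1l1), and their part in the fall of Slc25a18 was not tested. In such bulk samples fewer cells of a type and less RNA per cell cannot be told apart.

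Of 4 di- and tricarboxylate carriers tested, 3 rose, where 38.3% of all genes were called higher. As TPM 2 rose and 0 fell, beside 15.9% and 59.1% of all genes. Slc25a1, which exports citrate for lipid synthesis, was at 61.6, 51.9, 59.6 and 60.8 FPKM in dopaminergic neurons, against 17.1, 20.6, 16.1, 18.2 and 19.0 FPKM in whole midbrain. All libraries of a group were close together, library 2 included, and the log2 fold change was 1.63 (SE 0.09, limma adjusted p = 1.0e-07), or 0.97 as TPM. Slc25a11, the oxoglutarate carrier and the other arm of the malate-aspartate shuttle, was at 88.7, 82.2, 84.9 and 88.8 FPKM, against 39.8, 62.4, 43.7, 40.9 and 40.0 FPKM in whole midbrain. Its log2 fold change was 0.93 (SE 0.13, limma adjusted p = 8.3e-05). Slc25a10, the dicarboxylate carrier, averaged 3.10 ± 0.494 against 1.93 ± 0.283 FPKM and was at -0.02 as TPM. Slc25a35, a carrier of unsettled substrate, was at 2.68 to 5.07 against 2.32 to 3.52 FPKM and did not pass (0.27). It passed without dopaminergic library 1 (0.40, adjusted p = 0.033) and under quantile normalization (0.61, adjusted p = 0.0048). Its relative Slc25a34 was below the filter, at 0.0164 to 0.216 FPKM in dopaminergic neurons and 0.685 to 1.37 FPKM in whole midbrain, and so was the oxodicarboxylate carrier Slc25a21, at most 0.0804 against 0.0733 to 0.805 FPKM.

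Of 11 cofactor and nucleotide carriers, 5 rose and none fell, which is 45.5% beside the 38.3% higher among all genes. As TPM 3 rose and 5 fell, beside 15.9% and 59.1% of all genes. Slc25a39, needed for glutathione uptake by mitochondria, was at 50.1, 57.1, 65.3 and 61.4 FPKM in dopaminergic neurons, against 15.02, 24.7, 14.2, 14.1 and 15.3 FPKM in whole midbrain. It rose by 1.78 on the log2 scale (SE 0.16, limma adjusted p = 3.4e-06). Its paralog Slc25a40 was at 7.89, 5.82, 6.55 and 5.05 FPKM, against 4.18, 6.41, 3.9996, 4.86 and 4.59 FPKM, groups that overlapped (0.34, adjusted p = 0.054, and 0.43 with adjusted p = 0.0059 without whole midbrain library 2). It also passed without dopaminergic library 4 (0.42, adjusted p = 0.028), with quantile normalization (0.53), median centring (0.40), weights per library (0.40) and length correction (0.61). The ratio of Slc25a39 to Slc25a40 was 6.35 to 12.2 in dopaminergic neurons and 2.90 to 3.86 in whole midbrain, higher by 1.44 on the log2 scale (exact permutation p = 0.016, 0.024 adjusted over 12 pairs). Slc25a16, a carrier tied to coenzyme A, was at 32.6, 28.7, 30.2 and 32.6 FPKM in dopaminergic neurons, against 10.8, 6.995, 10.2, 10.7 and 11.3 FPKM in whole midbrain. Its log2 fold change was 1.56 (SE 0.12, limma adjusted p = 1.4e-06), and whole midbrain library 2 was the lowest of its group.

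Slc25a33, a pyrimidine nucleotide carrier, was at 34.6, 37.0, 35.3 and 37.9 FPKM in dopaminergic neurons, against 13.2, 33.6, 13.5, 12.5 and 11.8 FPKM in whole midbrain. Whole midbrain library 2 nearly reached the dopaminergic libraries, and the log2 fold change was 1.17 with it and 1.44 without it (limma adjusted p = 0.0022 and 3.1e-09). The related carrier Slc25a36 was at 17.6, 17.9, 15.7 and 15.1 FPKM, against 14.9, 12.6, 15.97, 16.2 and 15.7 FPKM in whole midbrain. The groups overlapped and it did not pass (0.13), was called lower as TPM (-0.55) and higher with length correction (0.46). Their ratio did not pass with all libraries (difference in mean log2 ratio 1.04, exact permutation p = 0.079, 0.11 adjusted over 12 pairs) and passed without library 2 (1.36, adjusted p = 0.038). Slc25a51, the NAD carrier, averaged 29.6 ± 0.970 FPKM in dopaminergic neurons and 19.9 ± 0.757 FPKM in whole midbrain. It passed (0.55, SE 0.06, limma adjusted p = 1.7e-05) and stood at -0.13 as TPM. The peroxisomal carrier Slc25a17, the coenzyme A carrier Slc25a42, the S-adenosylmethionine carrier Slc25a26 and the folate carrier Slc25a32 had log2 fold changes of -0.01 to 0.11 and did not pass, and as TPM all 4 were called lower (-0.66 to -0.52). Without library 2 Slc25a42 was called higher (0.24, adjusted p = 0.037).

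Among amino acid and carnitine carriers, 2 of 5 tested rose, or 40%, near the 38.3% called higher among all genes. As TPM 1 rose and 2 fell, beside 15.9% and 59.1% of all genes. Slc25a38, the glycine carrier that serves heme synthesis, was at 26.2, 28.3, 33.9 and 29.7 FPKM in dopaminergic neurons, against 5.58, 14.5, 6.45, 6.57 and 7.20 FPKM in whole midbrain. It had the largest rise of the carriers, 1.82 on the log2 scale (SE 0.22, limma adjusted p = 3.1e-05). Slc25a44, the carrier of branched-chain amino acids, was at 25.9, 28.3, 29.3 and 32.1 FPKM, against 15.8, 15.1, 16.4, 15.6 and 16.4 FPKM in whole midbrain. The groups were apart (0.82, SE 0.07, limma adjusted p = 3.4e-06), but as TPM the value was 0.15 and did not pass (adjusted p = 0.27). The ornithine carrier Slc25a15, the carnitine carrier Slc25a20 and the basic amino acid carrier Slc25a29 had log2 fold changes of -0.11, -0.10 and 0.20 and did not pass. Slc25a29 passed without library 2 (0.43, adjusted p = 0.0095) and with weights per library (0.40, adjusted p = 0.016), and Slc25a15 and Slc25a20 were called lower as TPM (-0.77 and -0.78, adjusted p = 0.00011 and 0.0020). Slc25a45 was below the filter, at 0.0484 to 0.588 FPKM in dopaminergic neurons and 0.741 to 2.17 FPKM in whole midbrain. Slc25a2, Slc25a47 and Slc25a48 were also below it, at no more than 1.25 FPKM in any dopaminergic library and 1.54 FPKM in any whole midbrain library.

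Of the mitoferrins, which bring iron into mitochondria, 1 fell and the other did not pass, where 36.0% of all genes were called lower. Slc25a37 (mitoferrin-1) was at 5.15, 5.80, 4.39 and 4.25 FPKM in dopaminergic neurons, against 8.81, 7.004, 8.77, 8.26 and 7.61 FPKM in whole midbrain. It fell by 0.63 on the log2 scale (SE 0.10, limma adjusted p = 0.00027), and 381 of its exonic bases are shared with Gm31748 on the opposite strand. Slc25a28 (mitoferrin-2) was at 10.4, 10.4, 10.6 and 11.7 FPKM, against 10.6, 8.72, 9.37, 9.77 and 11.3 FPKM in whole midbrain. These groups overlapped (0.11, adjusted p = 0.26), and as TPM it was called lower (-0.56). The ratio of Slc25a37 to Slc25a28 was 0.363 to 0.558 in dopaminergic neurons and 0.676 to 0.935 in whole midbrain, lower by 0.74 in mean log2 ratio (-1.01 ± 0.23 against -0.27 ± 0.15, exact permutation p = 0.016, 0.024 adjusted over 12 pairs). As background, mitoferrin-1 is best known from red blood cell precursors and mitoferrin-2 from other tissues.

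None of the 3 relatives of the uncoupling proteins passed in the comparison of FPKM, though each was called under other settings. Slc25a27 (UCP4) was at 26.9, 25.7, 25.3 and 26.9 FPKM in dopaminergic neurons, against 22.1, 13.9, 23.9, 23.3 and 21.5 FPKM in whole midbrain, groups that did not overlap (0.33, limma adjusted p = 0.053, and 0.20 with adjusted p = 0.0040 without library 2). It also passed without whole midbrain library 3 or 4 (0.38 each, adjusted p = 0.041 and 0.049), with a pseudocount of 5 (0.28), median centring (0.40) and weights per library (0.21). Slc25a14 (UCP5) was at 28.1, 26.5, 24.0 and 23.9 FPKM, against 28.4, 42.8, 28.2, 26.2 and 27.96 FPKM (-0.23, adjusted p = 0.15). It was called lower with length correction (-0.42), upper-quartile scaling (-0.46), quantile normalization (-0.55) and as TPM (-0.93). Whole midbrain library 2 was the lowest of its group for one of them and the highest for the other. Their ratio was 0.956 to 1.13 in dopaminergic neurons, against 0.767 to 0.890 in whole midbrain libraries 1, 3, 4 and 5 and 0.325 in library 2 (difference in mean log2 ratio 0.56, exact permutation p = 0.016, 0.024 adjusted over 12 pairs). Slc25a30 was at 1.30 to 2.03 FPKM against 1.14 to 1.88 FPKM, and it was called higher under quantile normalization (0.59) and lower as TPM (-0.55). The outer membrane protein Slc25a46, linked in humans to optic atrophy and neuropathy, was at 33.8 to 38.6 FPKM against 30.6 to 40.9 FPKM (0.05, adjusted p = 0.63), and it was called lower as TPM (-0.65). Slc25a53 was at 1.28 to 1.97 against 0.918 to 1.56 FPKM and did not pass. Slc25a43 and Slc25a54 were at most 1.40 and 0.137 FPKM in dopaminergic neurons and 0.597 and 0.0963 FPKM in whole midbrain.

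**Figure D4:**
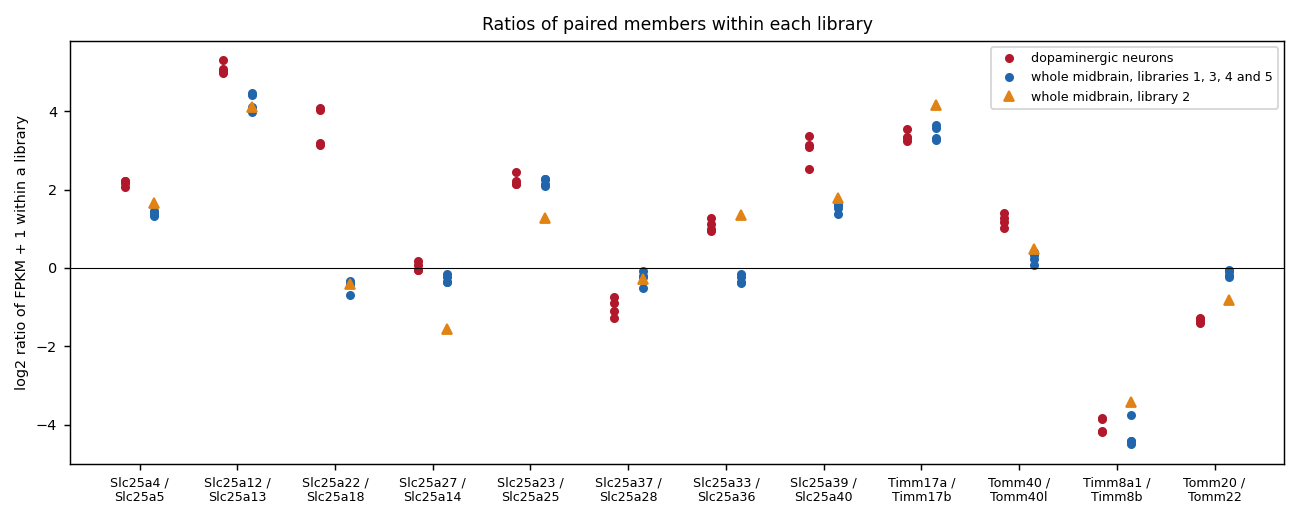
Log2 ratio of FPKM + 1 of 12 pairs of members within each library, dopaminergic neurons left of whole midbrain. In 8 pairs the groups do not overlap and the difference passes, the widest being Slc25a22 over Slc25a18, at 3.61 ± 0.52 in dopaminergic neurons and -0.45 ± 0.14 in whole midbrain.

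Of the 12 pairs compared, which were chosen with earlier results of these data known, 8 passed. The lowest p that 4 against 5 libraries allow in the exact permutation test is 0.016. Each of the 8 reached it, which means only that the groups did not overlap. The share of other gene pairs that would pass was not computed. Among single genes tested, 32.6% did not overlap and were higher, and 31.8% did not overlap and were lower. When any 1 dopaminergic library was left out, the lowest adjusted p of the exact permutation test was 0.054. No pair then passed, although none of the 8 changed sign. That adjusted p follows from the smallest p that the smaller group allows, with 8 of 12 pairs at it. The loss of passing pairs therefore cannot show whether any 1 library carried a difference. The size of a difference moved with the setting, as for Slc25a22 over Slc25a18, which ranged from 2.95 to 4.54 on the log2 scale over the settings tried, and Slc25a12 over Slc25a13, from 0.62 to 1.10.

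Other mitochondrial transporters, outside the SLC25 symbols, were mixed, with 8 of 13 tested higher and 4 lower, beside 38.3% and 36.0% of all genes. As TPM 4 were higher and 4 lower, beside 15.9% and 59.1% of all genes. Sfxn1, a serine carrier, averaged 44.9 ± 1.36 FPKM in dopaminergic neurons and 16.1 ± 1.44 FPKM in whole midbrain, and Mpc2, of the pyruvate carrier, 280.5 ± 7.12 against 116 ± 67.3 FPKM. The largest falls were those of Sfxn5, a relative of Sfxn1, at 15.7 ± 2.19 against 35.4 ± 6.52 FPKM, and of the uncoupling protein gene Ucp2, at 3.41 ± 0.654 against 7.31 ± 0.718 FPKM. Ucp1 was listed at 0 in all 4 dopaminergic libraries.

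Transcript length moved with these differences. Across the 60 genes tested, log2 fold change and annotated exonic length had a Spearman's rho of -0.46, and across 12417 genes tested with a length rho was -0.25. These points share libraries, so no p is given. The level in whole midbrain library 2 relative to the rest of its group had a rho of -0.49 with length over the same 60 genes, with the short genes high in that library. After loess correction of fold changes for length, 21 of the 23 Timm and Tomm genes were still called higher and 1 lower, and 17 carriers were higher and 4 lower, while 40.2% of all genes were called higher and 32.1% lower. Between libraries of a group, the median coefficient of variation of the 60 genes was 8.07% in dopaminergic neurons, 18.2% in whole midbrain and 7.68% in whole midbrain without library 2.

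**Figure D5:**
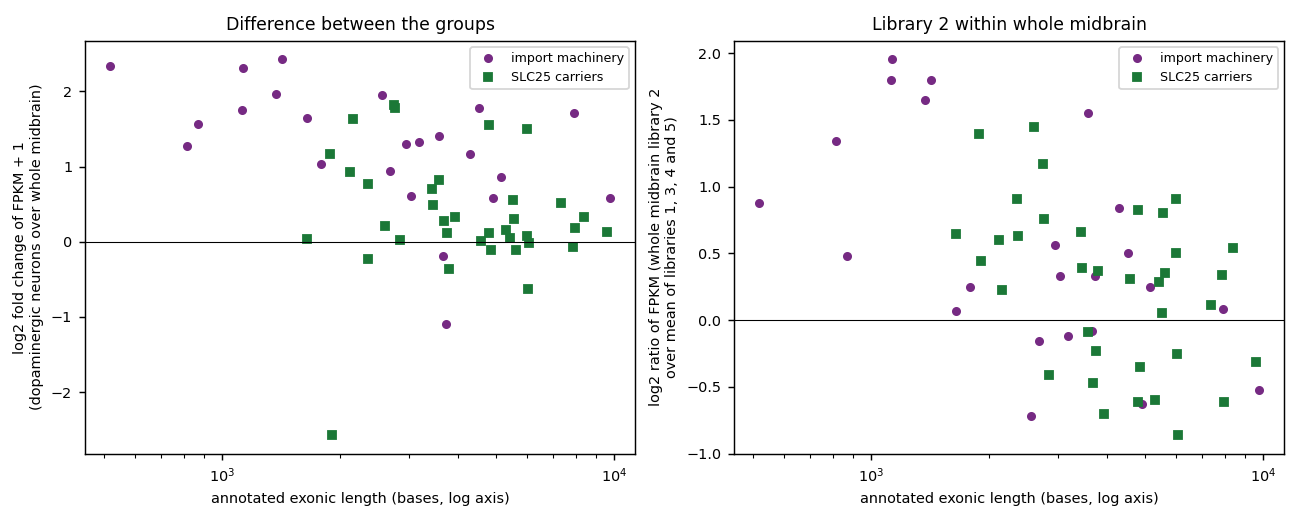
Log2 fold change of FPKM + 1, dopaminergic neurons over whole midbrain (left), and log2 ratio of FPKM in whole midbrain library 2 over the mean of libraries 1, 3, 4 and 5 (right), against annotated exonic length (bases, log axis) for 59 of the 60 genes tested. Both decline with length, with Spearman's rho of -0.46 and -0.49 over all 60. Slc25a18 is the lowest point on the left.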

How the data were processed

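RNA was sequenced from 4 libraries of dopaminergic neurons and 5 of whole midbrain. Per the labels' protocols, cDNA amplified from total RNA was sheared and read single-end. The deposited values are FPKM made by the authors, and TopHat2 2.0.8, Cufflinks 2.1.1 and mm10 are named in the submitters' processing notes. Annotation, strand handling and options: not given in the sources used here. Of values above 1, none of the dopaminergic libraries and 99.3% of those of whole midbrain had more than 6 significant digits. This difference in form coincides with the groups and cannot be told apart from cell type. The table holds no read counts, so no counting interval or floor was computed, and a value of 0 is only called listed at 0.

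A limma model (version 3.58.1, R 4.3.3) was fitted to log2(FPKM + 1) of the 13106 genes whose mean over all libraries reached 1 FPKM. It had a trend of variance on mean level, 7 residual and 3 prior degrees of freedom, two-sided p-values and Benjamini-Hochberg adjustment over all genes tested (threshold 0.05). The fit was tested on simulated data, and the exact test was checked on a fixed set of values whose p is known. Ratios of 12 pairs of members, fixed with the lists, were compared by exact permutation test. Python 3.11.15, SciPy 1.17.1, NumPy 2.4.6, pandas 2.3.3 and matplotlib 3.10.9 served for summaries. All 72 members matched GENCODE release M21 (GRCm38), which gave exonic lengths and overlaps, and near-identical copies were sought by BLAST among its transcripts. Coordinates count from 1. The members, role lists, marker lists and pairs were chosen with earlier results of these data known. Within each role the 2 passing genes with the largest rise and fall, and both genes of each pair, are given with the value of every library, and for 2 lists of other mitochondrial genes the 2 with the largest change each way are named. One member is counted but not reported by name here. Other genes were added after their values were seen. Alternatives were other pseudocounts, filters, scalings, TPM without small RNA genes, no trend, weights per library, a block for the replicate number, length correction and leaving out each library. Counts without Tomm6os and sums without Timm8b were added after seeing the data.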

Additional observations from a re-analysis of the deposited data

Results flagged for a closer look

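One library lay far from the others of its group in 29 of 116 sets of values examined (33 genes, summed levels and pair ratios, each in 2 groups). The gap to the nearest library was set against the group's whole range, with Dixon's limits at the 95 percent level, which chance passes in about 1 of 20 sets. In 27 of the 29 it was whole midbrain library 2, the highest of its group in 20 and the lowest in 7. The value of library 2, the range of the other 4 libraries and the gap as a share of the range are given in that order below.

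Library 2 stood above the rest for Slc25a11 (62.4 against 39.8 to 43.7 FPKM, 0.8287), Slc25a14 (42.8 against 26.2 to 28.4 FPKM, 0.865), Slc25a33 (33.6 against 11.8 to 13.5 FPKM, 0.921), Slc25a38 (14.5 against 5.58 to 7.20 FPKM, 0.819), Slc25a39 (24.7 against 14.1 to 15.3 FPKM, 0.891), Slc25a4 (922 against 483 to 500.0 FPKM, 0.961), Slc25a5 (292 against 177 to 193 FPKM, 0.864), Timm8a1 (30.2 against 7.17 to 12.6 FPKM, 0.764), Timm8b (335 against 173 to 194 FPKM, 0.871), Tomm40 (19.7 against 13.2 to 14.9 FPKM, 0.731) and Tomm6 (64.1 against 15.1 to 18.6 FPKM, 0.928). It stood below the rest for Slc25a16 (6.995 against 10.2 to 11.3 FPKM, 0.751), Slc25a23 (42.3 against 61.9 to 66.7 FPKM, 0.805), Slc25a27 (13.9 against 21.5 to 23.9 FPKM, 0.758) and Tomm20 (37.4 against 56.1 to 60.6 FPKM, 0.807).

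Summed levels in which library 2 was highest were those of ADP/ATP, ATP-Mg and phosphate carriers (1629 against 943 to 974 FPKM, 0.955), TIM22 complex and small TIM chaperones (545 against 264 to 279.9 FPKM, 0.942), TOM complex (424 against 309.7 to 325 FPKM, 0.863), amino acid and carnitine carriers (49.3 against 37.4 to 40.7 FPKM, 0.720), carriers (2128 against 1358 to 1389 FPKM, 0.960), cofactor and nucleotide carriers (147 against 118 to 121 FPKM, 0.900), di- and tricarboxylate carriers (89.5 against 63.6 to 65.6 FPKM, 0.926) and import machinery (1169.7 against 763 to 787 FPKM, 0.940). Log2 ratios in which it stood apart were Slc25a27/Slc25a14 (-1.55 against -0.37 to -0.16, 0.852), Slc25a23/Slc25a25 (1.28 against 2.09 to 2.28, 0.809), Slc25a33/Slc25a36 (1.34 against -0.38 to -0.16, 0.873), Tomm20/Tomm22 (-0.82 against -0.23 to -0.05, 0.770).

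Outside library 2, Slc25a28 was at 11.7 FPKM in dopaminergic library 4, against 10.4 to 10.6 FPKM in the other 3 (0.851). The log2 ratio of Slc25a22 to Slc25a18 was -0.70 in whole midbrain library 3, against -0.41 to -0.33 in the other 4 (0.772).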

How the results depend on the processing

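All 35 members called higher and all 4 called lower kept their direction and call wherever they were tested under 18 of the 21 settings tried, the exceptions being TPM, quantile normalization and upper-quartile scaling. The sign turned, with a call on at least 1 side, for these log2 fold changes. As TPM they were Slc25a10 -0.015, Slc25a12 -0.18, Slc25a17 -0.66, Slc25a23 -0.54, Slc25a26 -0.52, Slc25a28 -0.56, Slc25a3 -0.40, Slc25a30 -0.55, Slc25a36 -0.55, Slc25a42 -0.58, Slc25a46 -0.65, Slc25a5 -0.66, Slc25a51 -0.13, Tomm20 -0.11, Tomm34 -0.068 and Tomm70a -0.10. Under quantile normalization they were Slc25a12 -0.060, Slc25a13 0.24, Slc25a3 -0.60, Slc25a4 -0.38, Slc25a46 -0.34, Slc25a5 -0.85 and Tomm20 -0.020, and under upper-quartile scaling Slc25a46 -0.18. In counts of higher and lower members, TPM gave 23 and 20 in all, with 7 and 18 carriers and 2 lower Timm and Tomm genes, and quantile normalization and upper-quartile scaling each gave 9 lower members, 7 carriers and 2 Timm and Tomm genes. Calls ended with no change of sign as TPM for Slc25a24, Slc25a4, Slc25a44, Timm50 and Tomm40l. They did so under upper-quartile scaling for Tomm20 and under quantile normalization for Tomm70a. Of the 21 members that did not pass, 11 passed in at least 1 of the other 18 settings. Calls also arose with no change of sign: as TPM Slc25a14 (-0.93), Slc25a15 (-0.77), Slc25a20 (-0.78), Slc25a25 (-0.76), Slc25a32 (-0.63) and Timm44 (-0.88) were lower, under upper-quartile scaling Slc25a14 (-0.46), Slc25a15 (-0.30), Slc25a25 (-0.29) and Timm44 (-0.42) were lower, and under quantile normalization Slc25a14 (-0.55) and Timm44 (-0.30) were lower and Slc25a30 (0.59), Slc25a35 (0.61), Slc25a40 (0.53) and Slc25a53 (0.78) higher. Without the filter 5 carriers were lower, the added ones being genes below it, and with a minimum mean of 5 FPKM 2 members and 0 Timm and Tomm genes were lower, since fewer genes were tested. The median log2 fold change of all genes tested was -0.60 as TPM, -0.16 under upper-quartile scaling and 0.11 under quantile normalization. Leaving out 1 library at a time gave 35 to 41 higher and 4 to 5 lower members. Among Timm and Tomm genes 21 were higher and 1 to 2 lower. Among carriers 14 to 20 were higher (20 without whole midbrain library 2) and 3 lower. From 0 to 9 pairs passed the threshold. It was 0 wherever a dopaminergic library was left out, where the lowest adjusted p of the exact permutation test was 0.054. That value is the smallest p the smaller group allows, adjusted over the pairs. With the replicate number as a block (libraries 1 to 4 of each group) 35 members were higher and 4 lower, the same as without it, and 4553 and 4355 of all genes against 5014 and 4717. Same-numbered libraries did not vary together (r of -0.0498 to 0.0190), and 0 of the 4 dopaminergic libraries correlated best with its own number. With so few libraries this cannot show whether same-numbered libraries came from shared animals. The table gives no counts, which limits what can be said of the 12 genes below 1 FPKM.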
